A study of Mus musculus with 5 samples.

Results

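The kinesin motor genes and the genes of spindle assembly were followed in stem cells sorted from the hair follicles of mice. The members were the protein-coding genes of the deposited table whose symbol is Kif followed by a number, with or without a letter from a to c, together with Kifc1 and 15 named spindle assembly genes. That gave 55 of the 55357 genes in the table, of which 40 were kinesins. By known role the kinesins were sorted into 13 mitotic, 13 transport, 7 cilium and centriole and 7 other kinesins. This sorting was made with earlier results of these data known. Most of the other kinesins have roles in microtubule growth or signalling. They include Kif2a, a depolymerase used in neurons and at spindle poles, whose relatives Kif2b and Kif2c were counted as mitotic. The PRC1 i2KO libraries came from mice labelled K15-CrePR1:Ring1a-/-, Ring1bflox/flox (3 libraries), and they were set against Control libraries from mice labelled Ring1a-/-, Ring1bflox/flox (2 libraries). Both groups lacked Ring1a, one of the alternative catalytic subunits of the Polycomb complex PRC1, and the skin of both was treated with 1% RU-486 once a day, starting at postnatal day 50 and ending after 10 days. K15-CrePR1 is a Cre recombinase under a keratin 15 promoter that RU-486 activates, so deletion of Ring1b (gene Rnf2) was limited to cells that used that promoter. Cells were sorted from skin at postnatal day 75, 15 days after treatment, on CD34, high α6 integrin and EpCAM, without Sca1, and their polyadenylated RNA was sequenced in bulk. Values of single libraries are given in the order of replicates 1, 2 and 3 for PRC1 i2KO and of replicates 1 and 3 for Control, as reads scaled to a common library total (CPM, with TMM) or, where genes are compared, as TPM, which also accounts for length. The labels do not say that libraries came from separate animals, so p-values measure the spread between these libraries, which may be technical.

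Kinesins are motor proteins that use ATP to walk along microtubules or to shorten them. One set builds the mitotic spindle, moves chromosomes and sets up cell division, and its transcripts are made mainly in the G2 and M phases of the cell cycle. Other kinesins carry vesicles, organelles and RNA, or work in the primary cilium, in dividing and non-dividing cells alike. Spindle assembly further needs kinases such as Aurora A and Plk1 and microtubule-binding proteins at the poles, along the fibres and in the central spindle. In resting follicles, bulge stem cells are largely quiescent, and they divide when a new hair cycle begins.

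Transcripts of mitotic kinesins and of spindle assembly genes were higher in PRC1 i2KO, while most transport kinesins did not pass the test. Of 13 mitotic kinesins, 12 could be tested, and of these 11 rose, none fell and 1 (Kif18a) did not pass. All 15 spindle assembly genes were tested, of which 14 rose, none fell and 1 (Ckap5) did not pass. Of 13 transport kinesins, all tested, 1 rose, 4 fell and 8 were not called. Among the 15665 genes tested in all, 18.8% rose and 15.1% fell (edgeR's quasi-likelihood test, Benjamini-Hochberg adjusted p under 0.05), 33.9% together. The median log2 fold change was 4.14 over the 12 tested mitotic kinesins, 3.20 over the 15 spindle assembly genes and -0.28 over the 13 transport kinesins, beside -0.01 over all genes tested. All 11 mitotic kinesins and 14 spindle assembly genes that rose did so at least 2-fold, a size and direction reached by 10.8% of all genes tested. With any 1 library left out, 11 mitotic kinesins and 13 or 14 spindle assembly genes rose. In bulk RNA, a larger share of cells holding these transcripts and more of these transcripts per cell cannot be told apart.

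**Figure D1:**
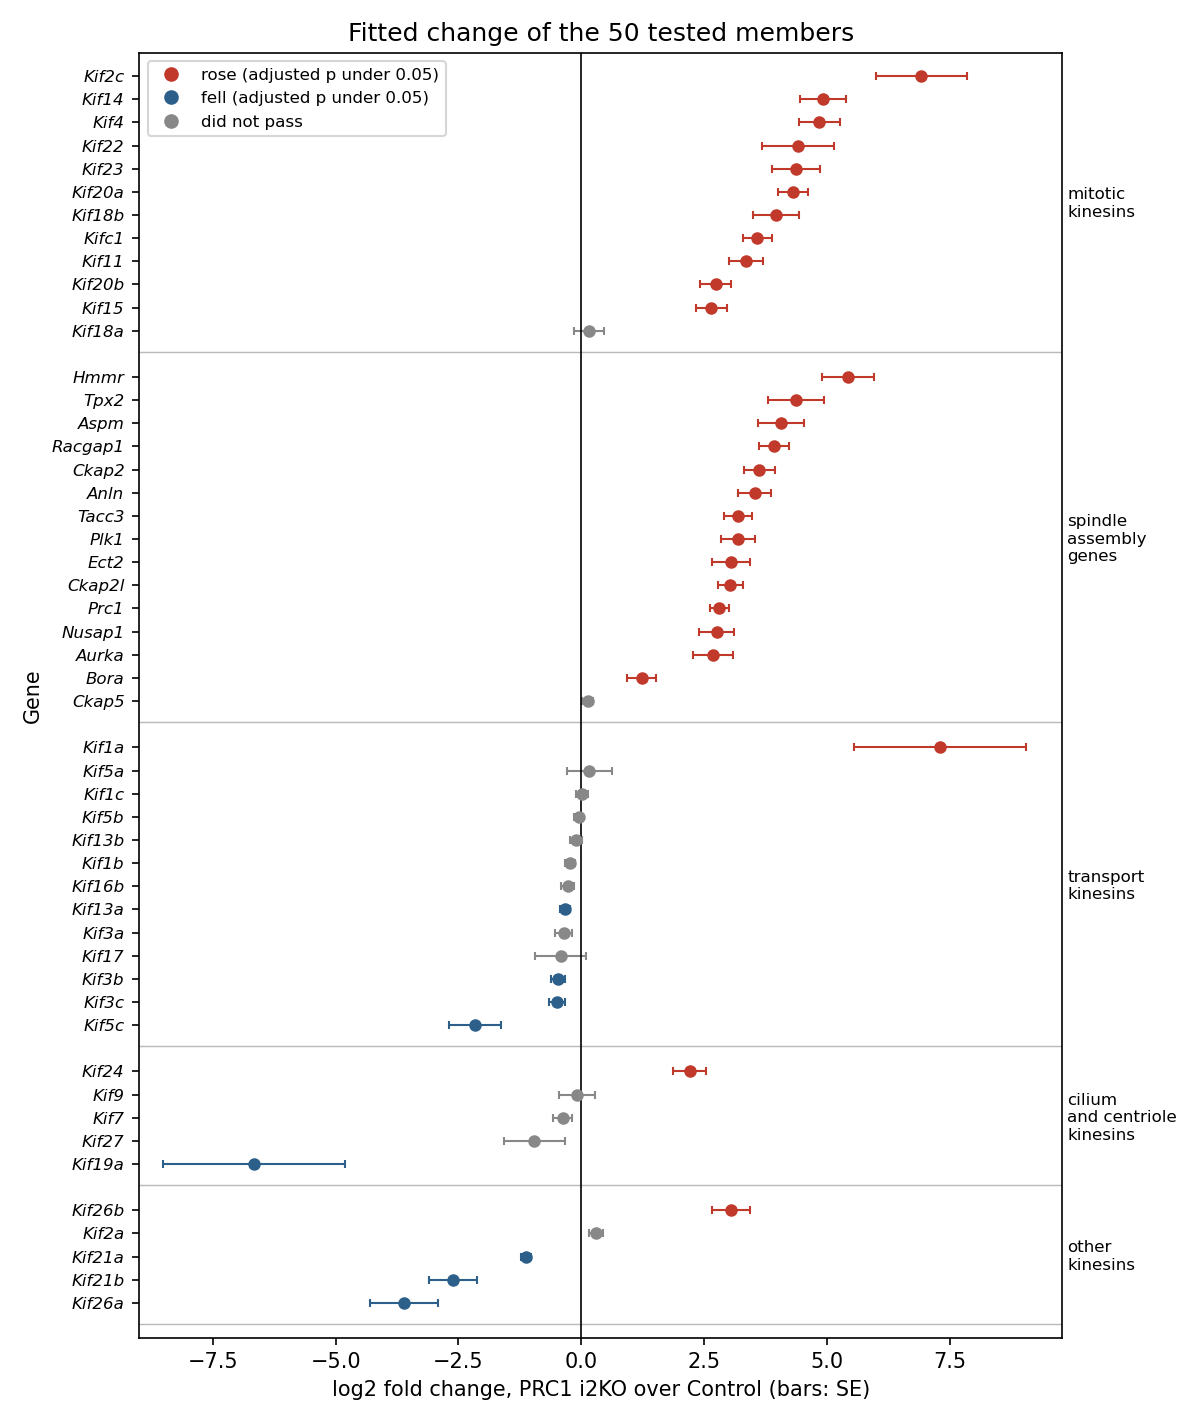
Fitted log2 fold change (PRC1 i2KO over Control) of the 50 members with enough reads to test, grouped by role; points are edgeR estimates, bars are standard errors, red rose, blue fell and grey did not pass. The mitotic kinesins other than Kif18a and the spindle assembly genes other than Ckap5 lie right of 0, most transport kinesins lie close to 0, and the values of Kif2c, Kif1a and Kif19a rest on groups with 0 to 3 reads and so depend on the prior count.

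The libraries held 9675996, 21102727 and 18657555 estimated reads in PRC1 i2KO and 8270419 and 32463173 in Control. Of 10 bulge stem cell markers, 9 fell and none rose, with a summed level of 4694 to 6673 CPM in PRC1 i2KO and 19604 to 20681 CPM in Control. Cd34, the sort marker, stood at 11.0, 12.3 and 37.2 CPM in PRC1 i2KO and 1548 and 1697 CPM in Control and so was low in PRC1 i2KO. Markers of some neighbouring cells were also higher in PRC1 i2KO, a match with the mitotic kinesins in the direction between groups only. All 7 upper follicle and infundibulum markers rose (7974 to 8168 CPM in PRC1 i2KO and 576 to 804 CPM in Control), as did all 6 sebaceous gland markers (2464 to 3093 CPM in PRC1 i2KO and 213 to 219 CPM in Control) and all 6 suprabasal markers (1620.0 to 2543 CPM in PRC1 i2KO and 958 to 975 CPM in Control). Of 7 listed hair matrix markers (Krt85 was not matched), 2 rose and 1 fell (78.2 to 131 CPM in PRC1 i2KO and 75.9 to 100.2 CPM in Control). Of 8 listed immune cell markers, 2 rose, Cd74 and H2-Aa, Lyz2 had 0 reads and Trdc was not matched (80.1 to 116 CPM in PRC1 i2KO and 25.8 to 31.4 CPM in Control). Of 8 melanocyte markers, 3 rose and 1 fell (72.4 to 78.5 CPM in PRC1 i2KO and 157 to 170.2 CPM in Control). The Control sum was mostly Mitf (163 and 151 CPM), the melanocyte marker that fell (log2 fold change -1.95). The lower sum in PRC1 i2KO thus reflects Mitf, while Kit, Dct and Sox10 rose (log2 fold change 3.25, 3.09 and 2.05). Of 6 fibroblast markers, 1 rose and 3 fell (32.7 to 33.0 CPM in PRC1 i2KO and 71.8 to 73.8 CPM in Control). Endothelial and Merkel cell markers stayed at or under 5.11 CPM in every library. The part of these cell types in the rise of mitotic genes was not tested.

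The promoters of the members were read next, because many genes transcribed in G2 and M phase share short promoter elements. The cell cycle homology region, bound by the DREAM and MuvB complexes, was searched as TTTGAA or TTCGAA, the CCAAT box, bound by the factor NF-Y, as CCAAT, and the E2F site as TTCCCGC or TTGGCGC, each on both strands. RefSeq promoter windows (build GRCm38.p6, 250 bases before to 50 after the start site) were matched by symbol for 45 of the 55 members, in 51 windows. Different motifs overlapped only at Ect2, where the same overlap of a CCAAT box with an E2F site lies in both of its windows. The cell cycle homology region was in the upstream 250 bases of 5 of 12 mitotic kinesins, 5 of 13 spindle assembly genes and 1 of 10 transport kinesins, and of 19.6% of all 27025 genes with a window. In the full window of 300 bases, an extension made after seeing the data, it was in 10 of 12 mitotic kinesins, 11 of 13 spindle assembly genes and 1 of 10 transport kinesins, and in 21.7% of all genes. The mitotic kinesins without it in that window were Kif18a and Kif2b, and the transport kinesin with it was Kif1a.

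Set out by result, 23 of 25 members that rose held the cell cycle homology region in the full window, against 2 of 20 of the other members, Ckap5 and Kif27. Apart from Kif24, Kif26b and Kif1a, the members that rose are mitotic kinesins and spindle assembly genes already counted by class. Splits by result thus largely repeat the split by class and are not a separate result. Kif24 and Kif26b, which rose although neither is counted as a mitotic kinesin, were among those that held the region. The members that rose without it in the full window were Nusap1 and Tacc3. In the upstream part alone, the region was in 12 of 25 members that rose and in 2 of 20 others. Within 50 bases on either side of the start site, a window also chosen after seeing the data, it was found in 20 of 25 members that rose, in 1 of 20 others and in 6.12% of all genes. The CCAAT box was in the upstream part of 8 of 12 mitotic kinesins, 10 of 13 spindle assembly genes and 3 of 10 transport kinesins, and in 37.5% of all genes. The E2F site was in 2 of 12, 1 of 13 and 0 of 10 of these groups and in 6.45% of all genes. These matches describe letters in a window and were given no test. They do not show that a factor was bound.

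The 100 bases before the start site are printed 5′ to 3′ for 10 members, with the cell cycle homology region and the CCAAT box, read on either strand, in capitals (RefSeq, GRCm38.p6). For Prc1, which has 2 start sites, the more downstream one was used. The first 7 were chosen because they hold the cell cycle homology region in these bases, so the contrast with the last 3 is not a result. Of these 7, the first 5 are mitotic kinesins and spindle assembly genes that rose, and the other 2 are kinesins of other classes that rose. The last 3 are a mitotic kinesin that did not pass, a transport kinesin that fell and the most abundant transport kinesin. They lie at Kif11 (chr19:37376282-37376381, plus strand), Kif15 (chr9:122950981-122951080, plus strand), Kif22 (chr7:127042421-127042520, minus strand), Prc1 (chr7:80294376-80294475, plus strand), Ckap2l (chr2:129297213-129297312, minus strand), Kif24 (chr4:41464849-41464948, minus strand), Kif26b (chr1:178529025-178529124, plus strand), Kif18a (chr2:109280638-109280737, plus strand), Kif5c (chr2:49619186-49619285, plus strand) and Kif1c (chr11:70700448-70700547, plus strand).
Kif11: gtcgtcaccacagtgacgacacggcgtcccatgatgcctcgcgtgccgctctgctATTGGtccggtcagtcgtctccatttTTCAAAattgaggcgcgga
Kif15: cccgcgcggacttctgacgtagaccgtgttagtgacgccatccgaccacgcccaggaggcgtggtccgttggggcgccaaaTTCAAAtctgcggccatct
Kif22: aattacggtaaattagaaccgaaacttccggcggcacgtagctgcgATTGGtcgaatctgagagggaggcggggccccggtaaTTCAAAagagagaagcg
Prc1: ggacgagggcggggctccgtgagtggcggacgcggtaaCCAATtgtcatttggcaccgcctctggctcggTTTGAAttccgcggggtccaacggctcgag
Ckap2l: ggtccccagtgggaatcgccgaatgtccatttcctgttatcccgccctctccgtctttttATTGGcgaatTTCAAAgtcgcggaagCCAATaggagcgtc
Kif24: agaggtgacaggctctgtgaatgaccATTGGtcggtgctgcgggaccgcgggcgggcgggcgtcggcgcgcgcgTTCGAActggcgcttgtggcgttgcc
Kif26b: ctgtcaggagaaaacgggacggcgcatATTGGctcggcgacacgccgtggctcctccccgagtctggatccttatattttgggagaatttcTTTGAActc
Kif18a: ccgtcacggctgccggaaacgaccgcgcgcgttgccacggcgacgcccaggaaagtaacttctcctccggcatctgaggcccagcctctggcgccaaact
Kif5c: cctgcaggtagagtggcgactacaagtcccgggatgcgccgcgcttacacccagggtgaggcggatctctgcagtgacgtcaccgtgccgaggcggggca
Kif1c: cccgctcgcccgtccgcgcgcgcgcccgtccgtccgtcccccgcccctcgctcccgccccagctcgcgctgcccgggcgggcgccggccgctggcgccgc
In each of the first 7 stretches except that of Kif15 a CCAAT box lies upstream of the cell cycle homology region, and none of the last 3 stretches holds either motif.

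**Figure D2:**
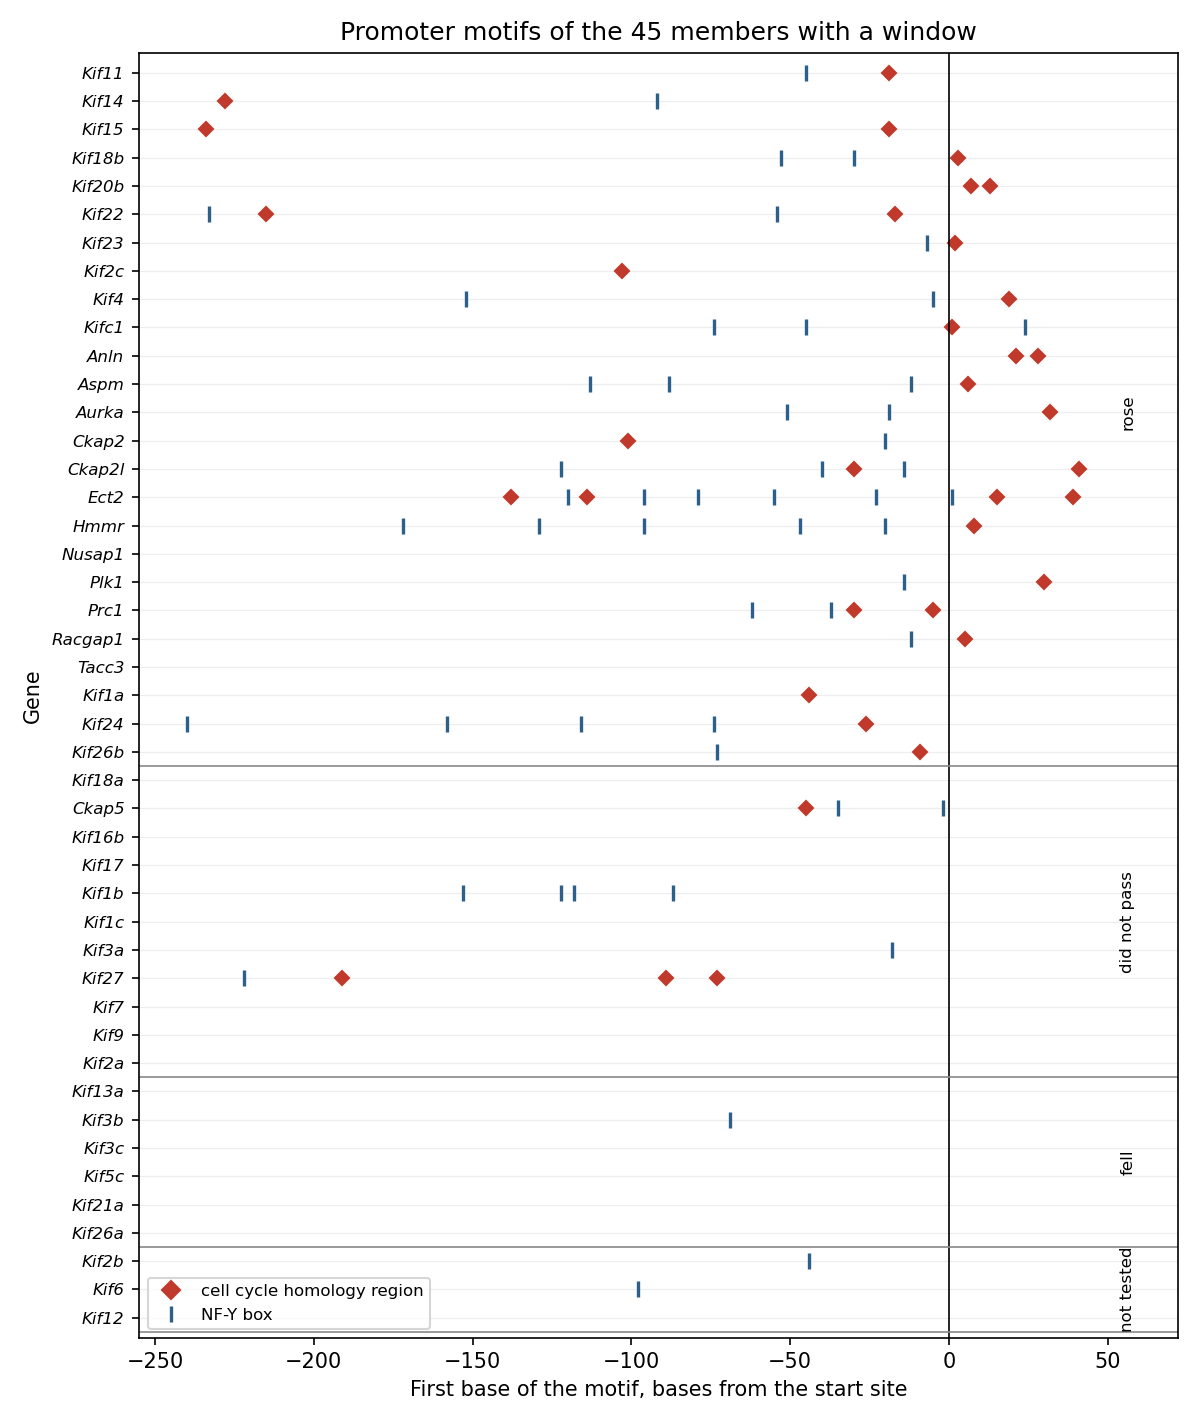
Position of the cell cycle homology region (red diamonds) and the CCAAT box, drawn as NF-Y box (blue bars), in the promoter windows of 45 members, as bases from the start site to the first base of the motif; genes with 2 start sites show the matches of both. Genes are ordered by result, and red diamonds stand in 23 of the 25 genes that rose, most of them near the start site, and in 2 of the 20 others.

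Among mitotic kinesins, those that set up the 2 spindle poles were read first. Kif11, which slides antiparallel microtubules apart to separate the poles, stood at 31.5, 32.3 and 17.7 CPM in PRC1 i2KO, against 3.32 and 2.27 CPM in Control. All PRC1 i2KO libraries lay above both controls, a 10.2-fold rise (log2 fold change 3.35, SE 0.35, edgeR adjusted p = 1.12e-04). Kif15, which can stand in for Kif11 in holding the spindle bipolar, stood at 16.2, 15.5 and 11.3 CPM in PRC1 i2KO, against 2.71 and 1.99 CPM in Control (6.28-fold, edgeR adjusted p = 1.93e-04). On the deposited TPM its groups stood much closer, at 11.4, 11.4 and 8.15 TPM in PRC1 i2KO, against 9.11 and 6.17 TPM in Control, and the rise did not pass there (limma adjusted p = 0.293). Kifc1, a minus-end motor that focuses the poles, stood at 20.4, 15.9 and 15.6 CPM in PRC1 i2KO, against 1.48 and 1.40 CPM in Control, a 12.0-fold rise (edgeR adjusted p = 2.01e-05). The close paralog Kifc5b had 107, 190.3 and 246 reads in PRC1 i2KO and 29.0 and 29.1 in Control, some of them fractional as those of Kifc1 are, so the split between both genes is uncertain.

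Motors that act on chromosomes and on microtubule ends rose with 1 exception. Kif4, which acts on condensed chromosomes and in the central spindle, stood at 13.8, 14.0 and 8.90 CPM in PRC1 i2KO, against 0.369 and 0.435 CPM in Control. Its 28.8-fold rise separated the groups fully (log2 fold change 4.85, SE 0.42, edgeR adjusted p = 2.72e-05). Kif22, which pushes chromosome arms away from the poles, stood at 25.6, 22.6 and 15.2 CPM in PRC1 i2KO, against 2.34 and 0.373 CPM in Control. Its rise was 21.3-fold (edgeR adjusted p = 0.00597), and its log2 fold change was 4.41 with all libraries, 5.79 without Control replicate 1 and 3.16 without Control replicate 3. Kif2c, a depolymerase that corrects faulty chromosome attachments, stood at 13.9, 11.9 and 7.21 CPM in PRC1 i2KO, against 0.369 and 0 CPM in Control. It had 525 reads over the PRC1 i2KO libraries and 3 over the controls, all 3 in Control replicate 1. The ratio of summed reads, scaled to depth, was 141 (exact 95% binomial interval 48.1 to 687, counting error only), and the gene rose (edgeR adjusted p = 9.36e-04). Its fitted log2 fold change, 6.93 with all libraries, was 4.86 with Control replicate 3 left out and 10.81 with Control replicate 1 left out, a spread that the counting interval does not cover. Kif18b, which shortens astral microtubules, rose 15.6-fold to 18.9, 16.5 and 14.1 CPM in PRC1 i2KO, against 1.97 and 0.591 CPM in Control (edgeR adjusted p = 2.26e-04). Its log2 fold change was 3.97 with all libraries, 4.78 without Control replicate 1 and 3.05 without Control replicate 3.

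Kif18a, which damps the movements of aligned chromosomes, was the tested mitotic kinesin that did not pass. It stood at 9.74, 5.97 and 7.16 CPM in PRC1 i2KO, against 6.15 and 7.28 CPM in Control, and the groups overlapped (log2 fold change 0.16, SE 0.31, edgeR adjusted p = 0.730). Its highest and its lowest library were both PRC1 i2KO. Kif18a made up 4.14, 2.74 and 4.67% of the summed mitotic kinesin CPM in the PRC1 i2KO libraries and 24.6 and 38.6% in the controls. Kif2b, a depolymerase related to Kif2c, had 0 reads in all 5 libraries.

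The motors of cytokinesis all rose. Kif23, which bundles the central spindle as part of centralspindlin, stood at 31.6, 31.0 and 17.2 CPM in PRC1 i2KO, against 2.22 and 0.840 CPM in Control. In PRC1 i2KO it was the most abundant mitotic kinesin per length, and it averaged 31.2 ± 8.47 TPM in PRC1 i2KO (SD, n = 3) and 3.38 ± 0.587 TPM in Control (SD, n = 2). Its log2 fold change was 4.38 (edgeR adjusted p = 4.86e-04), 4.97 without Control replicate 1 and 3.57 without Control replicate 3. Kif20a, which brings Aurora B to the central spindle, stood at 26.0, 26.9 and 18.1 CPM in PRC1 i2KO, against 0.985 and 1.28 CPM in Control and rose 19.8-fold (log2 fold change 4.31, SE 0.31, edgeR adjusted p = 9.42e-06). Kif14, a motor of the late central spindle, stood at 8.39, 10.1 and 8.84 CPM in PRC1 i2KO, against 0.492 and 0.218 CPM in Control (30.4-fold, edgeR adjusted p = 4.9e-05, with a log2 fold change of 4.93 and of 4.19 without Control replicate 3). Kif20b, needed for the last steps of cell separation, stood at 19.6, 15.3 and 12.2 CPM in PRC1 i2KO, against 2.58 and 2.18 CPM in Control (6.67-fold, edgeR adjusted p = 1.56e-04), but did not pass on the deposited TPM (limma adjusted p = 0.0543). In the controls the mitotic kinesins that rose lay between 0 and 3.32 CPM, values that rest on few reads.

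**Figure D3:**
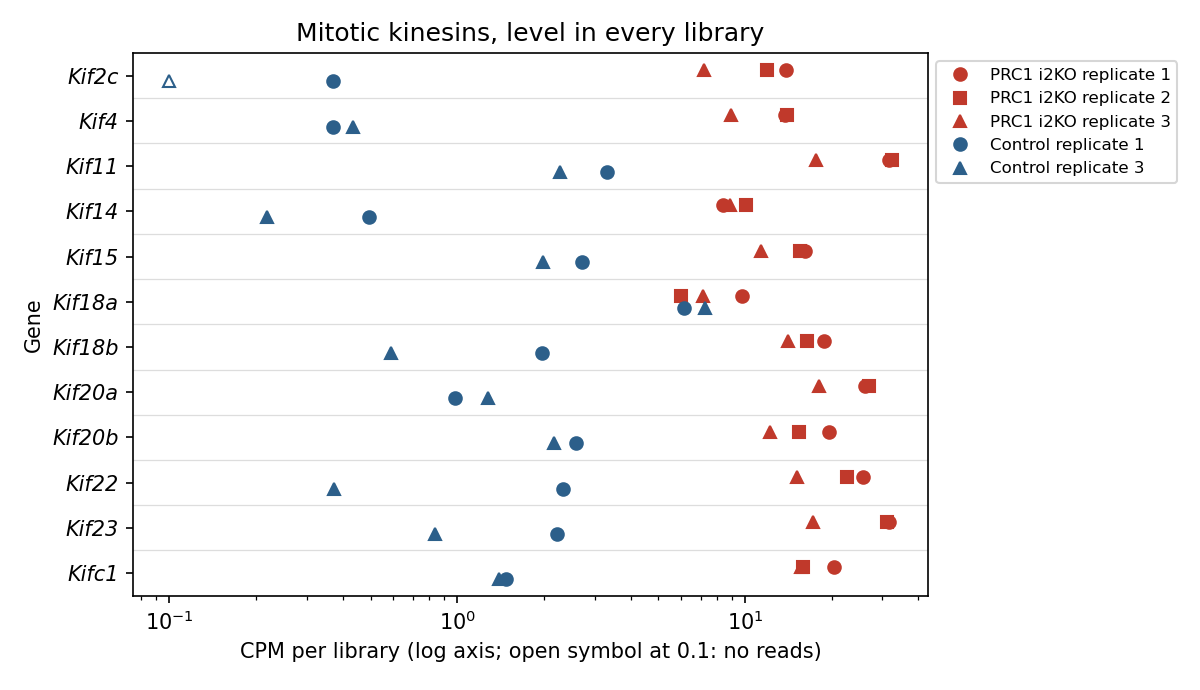
CPM of the 12 tested mitotic kinesins in each library (log axis; an open symbol at 0.1 marks no reads), with PRC1 i2KO in red and Control in blue, symbols marking the replicate number. For 11 genes every red symbol lies right of both blue ones, as for 30% of all genes tested, and for Kif18a they overlap.

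Of the spindle assembly genes, the kinases and their activators came first. Aurka, which encodes Aurora A, stood at 9.64, 8.84 and 9.42 CPM in PRC1 i2KO, against 0.738 and 1.87 CPM in Control, a 6.43-fold rise (edgeR adjusted p = 7.52e-04). Every PRC1 i2KO library lay above both controls, and the log2 fold change was 2.69 with all libraries and 3.64 without Control replicate 3. Tpx2, which activates Aurora A on microtubules, stood at 25.8, 31.0 and 20.4 CPM in PRC1 i2KO, against 2.58 and 0.622 CPM in Control. Its controls lay far apart, and its log2 fold change of 4.38 (edgeR adjusted p = 0.00131) became 5.36 when Control replicate 1 was left out and 3.31 when Control replicate 3 was. Plk1, a kinase of centrosome maturation and mitotic entry, stood at 20.1, 18.1 and 13.1 CPM in PRC1 i2KO, against 2.46 and 1.49 CPM in Control, a 9.19-fold rise (edgeR adjusted p = 1.04e-04). Bora, which helps Aurora A activate Plk1, stood at 14.6, 17.3 and 9.79 CPM in PRC1 i2KO, against 5.91 and 5.91 CPM in Control. Its 2.35-fold rise (edgeR adjusted p = 0.0103) was the smallest among the spindle assembly genes that rose and was lost without Control replicate 3 (adjusted p = 0.0637) or PRC1 i2KO replicate 2 (0.0510), and it did not pass on the deposited TPM (limma adjusted p = 0.0623). Hmmr, a microtubule-binding partner of Tpx2, stood at 11.2, 14.9 and 10.5 CPM in PRC1 i2KO, against 0.615 and 0.156 CPM in Control. It had the largest fitted rise of the list (log2 fold change 5.44, SE 0.54, edgeR adjusted p = 6.03e-05), with a log2 fold change of 6.24 without Control replicate 1 and 4.29 without Control replicate 3.

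Proteins of spindle poles and fibres rose except Ckap5. Aspm, a spindle pole protein, stood at 31.2, 28.5 and 18.4 CPM in PRC1 i2KO, against 2.71 and 0.964 CPM in Control (16.9-fold, edgeR adjusted p = 4.55e-04), with a log2 fold change of 4.74 without Control replicate 1 and 3.26 without Control replicate 3. Nusap1, which binds and stabilises spindle microtubules, stood at 21.1, 17.0 and 11.3 CPM in PRC1 i2KO, against 1.85 and 2.77 CPM in Control (6.78-fold, edgeR adjusted p = 3.02e-04). Ckap2 and Ckap2l, related microtubule-binding proteins of the spindle, both rose clear of the controls. Ckap2 stood at 25.2, 25.1 and 17.1 CPM in PRC1 i2KO, against 2.22 and 1.59 CPM in Control (12.4-fold, edgeR adjusted p = 2.37e-05). Ckap2l stood at 27.6, 24.1 and 20.2 CPM in PRC1 i2KO, against 2.95 and 2.86 CPM in Control (8.23-fold, edgeR adjusted p = 1.74e-05). Tacc3 and Ckap5 work together, Tacc3 bringing the microtubule polymerase Ckap5 to the spindle. Tacc3 stood at 22.7, 28.9 and 21.5 CPM in PRC1 i2KO, against 3.45 and 2.18 CPM in Control, a 9.20-fold rise (edgeR adjusted p = 3.11e-05), whereas Ckap5 stood at 91.8, 92.2 and 75.8 CPM in PRC1 i2KO, against 77.0 and 81.1 CPM in Control. The groups overlapped for Ckap5 (log2 fold change 0.13, SE 0.12, edgeR adjusted p = 0.441), and per length it averaged 21.3 ± 1.94 TPM in PRC1 i2KO (SD, n = 3) and 21.3 ± 1.18 TPM in Control (SD, n = 2).

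The proteins of the central spindle and the cleavage furrow rose. Prc1, the bundler of antiparallel microtubules in the central spindle and no part of the Polycomb complex of the same name, stood at 44.4, 41.7 and 36.2 CPM in PRC1 i2KO, against 6.65 and 5.23 CPM in Control. Its 7.03-fold rise had the lowest adjusted p of all members (log2 fold change 2.81, SE 0.19, edgeR adjusted p = 7.56e-06). Racgap1, the partner of Kif23 in centralspindlin, stood at 45.1, 46.5 and 26.7 CPM in PRC1 i2KO, against 2.95 and 2.39 CPM in Control, a 15.2-fold rise (edgeR adjusted p = 2.48e-05). Ect2, which activates RhoA at the furrow, stood at 19.9, 20.0 and 11.2 CPM in PRC1 i2KO, against 2.83 and 1.59 CPM in Control, an 8.26-fold rise (edgeR adjusted p = 3.13e-04) that did not pass on the deposited TPM (limma adjusted p = 0.0725). Anln, the furrow scaffold anillin, stood at 58.3, 60.1 and 39.5 CPM in PRC1 i2KO, against 6.52 and 3.39 CPM in Control (11.6-fold, edgeR adjusted p = 2.19e-04). Within groups, PRC1 i2KO replicate 3 was the lowest of its group for 23 of the 25 mitotic kinesins and spindle assembly genes that rose, and Control replicate 1 lay above Control replicate 3 for 20 of 25. Among all 2939 genes that rose, PRC1 i2KO replicate 3 was the lowest of its group for 56.4%, and Control replicate 1 lay above Control replicate 3 for 52.2%.

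**Figure D4:**
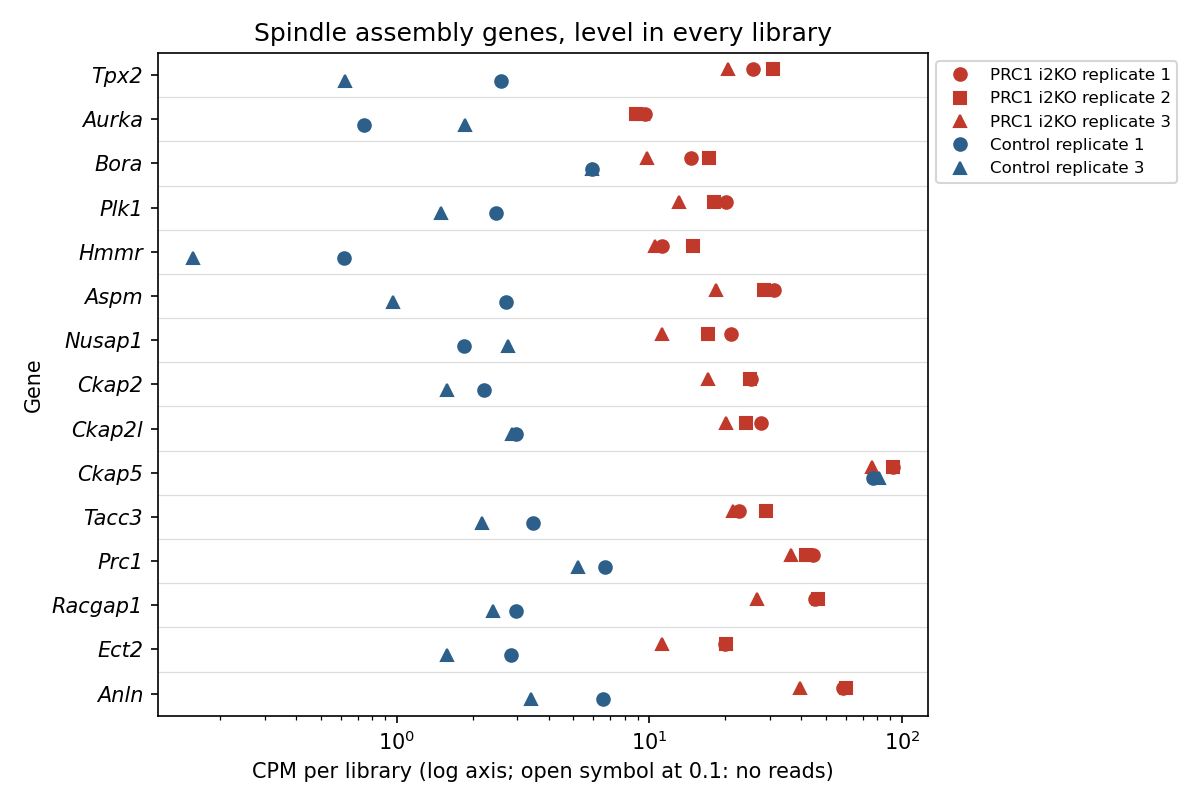
CPM of the 15 spindle assembly genes in each library (log axis), with PRC1 i2KO in red and Control in blue, symbols marking the replicate number. Red and blue overlap for Ckap5, the most abundant of the 15 by CPM. For the other 14, every red symbol lies right of both blue ones, as for 30% of all genes tested.

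Transport kinesins were together more abundant per length than mitotic ones in every library, and 8 of the 13 did not pass the test. Kif1c, a motor of membrane and RNA transport, was the most abundant kinesin per length, at 122, 124 and 152 TPM in PRC1 i2KO, against 137 and 158 TPM in Control. By CPM its groups overlapped too, with 413, 421 and 492 CPM in PRC1 i2KO, against 404 and 469 CPM in Control (log2 fold change 0.02, SE 0.12, edgeR adjusted p = 0.929). Kif5b, the widely used heavy chain of conventional kinesin, followed, averaging 89.3 ± 6.65 TPM in PRC1 i2KO (SD, n = 3) and 96.4 ± 4.05 TPM in Control (SD, n = 2). Its CPM overlapped between groups, at 254, 253 and 237 CPM in PRC1 i2KO, against 253 and 261 CPM in Control (log2 fold change -0.05, SE 0.10, edgeR adjusted p = 0.713). Kif5a and Kif5c are its relatives known mainly from neurons. Kif5a stood at 2.59, 3.24 and 5.21 CPM in PRC1 i2KO, against 4.18 and 2.58 CPM in Control and overlapped (log2 fold change 0.17, edgeR adjusted p = 0.811). Kif5c stood at 0.933, 1.27 and 3.37 CPM in PRC1 i2KO, against 5.91 and 10.9 CPM in Control, with the groups apart. Its 4.45-fold fall (log2 fold change -2.15, SE 0.53, edgeR adjusted p = 0.0129) was lost without Control replicate 3 (adjusted p = 0.142) or PRC1 i2KO replicate 2 (0.0599), and its log2 fold change was -2.91 without PRC1 i2KO replicate 3.

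The subunits of kinesin-2, which carries cargo into cilia and along cytoplasmic microtubules, are Kif3a, Kif3b and Kif3c, of which Kif3b and Kif3c fell. Kif3b stood at 31.7, 37.5 and 36.8 CPM in PRC1 i2KO, against 44.1 and 54.4 CPM in Control (log2 fold change -0.48, SE 0.14, edgeR adjusted p = 0.0269). Kif3c stood at 26.4, 27.5 and 30.1 CPM in PRC1 i2KO, against 34.0 and 44.6 CPM in Control (log2 fold change -0.50, SE 0.16, edgeR adjusted p = 0.0347). Every PRC1 i2KO library lay below both controls for both genes, as for 8 of the 13 transport kinesins, beside 29.4% of all genes tested. Kif3a, the shared partner subunit, stood at 18.3, 20.3 and 24.6 CPM in PRC1 i2KO, against 26.6 and 27.5 CPM in Control. It was not called (log2 fold change -0.36, edgeR adjusted p = 0.143) unless PRC1 i2KO replicate 3 was left out (0.0485). Kif13a, which carries endosomal and Golgi cargo, stood at 111, 128 and 127 CPM in PRC1 i2KO, against 149 and 156 CPM in Control, a 1.25-fold fall (edgeR adjusted p = 0.0366). The calls of Kif3b and Kif3c were lost when Control replicate 3 or 1 of the first 2 PRC1 i2KO replicates was left out (adjusted p from 0.0578 to 0.358), and that of Kif13a in the same fits and also without Control replicate 1 (0.0744 to 0.189). The number of transport kinesins that fell, 4 with all libraries, came to 3 when Control replicate 1 was left out and to 0 when Control replicate 3 was. Leaving out PRC1 i2KO replicates 1, 2 and 3 in turn gave 1, 0 and 5. On the deposited TPM (limma, log2(TPM + 1)) it was 1, Kif13a.

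Kif1b, Kif13b, Kif16b and Kif17, motors of mitochondria, membrane proteins, early endosomes and cilia, were not called. Kif1b stood at 93.2, 100.4 and 93.8 CPM in PRC1 i2KO, against 107 and 117 CPM in Control (log2 fold change -0.23), and Kif13b at 66.5, 71.0 and 61.3 CPM in PRC1 i2KO, against 78.4 and 64.1 CPM in Control (-0.10). Kif16b stood at 48.3, 60.6 and 59.7 CPM in PRC1 i2KO, against 74.3 and 62.6 CPM in Control (-0.28), and Kif17, given per length, at 0.720, 0.840 and 1.25 TPM in PRC1 i2KO, against 2.02 and 1.58 TPM in Control (-0.42). Groups overlapped for Kif13b, while for the other 3 every PRC1 i2KO library lay below both controls. The edgeR adjusted p of these 4 genes lay between 0.104 and 0.588. Kif1a, the axonal carrier of synaptic vesicle precursors, was the transport kinesin that rose. It had 54 reads over the PRC1 i2KO libraries, at 1.04, 0.611 and 1.63 CPM in replicates 1, 2 and 3, and 0 reads in both controls. Against a floor of 3 reads summed over Control, that is at least 14.5-fold higher (edgeR adjusted p = 0.0120, and 0.0927 without Control replicate 3). Without PRC1 i2KO replicate 3 it had too few reads to test, so that 0 transport kinesins rose there, as without Control replicate 3. Of 7 listed neuron and Schwann cell markers, Snap25, Nefl and Rbfox3 had 0 reads in every library. Only 3 of the 7 had enough reads to test, and none of these rose or fell. The summed level of the 7 was 2.49 to 4.65 CPM in PRC1 i2KO and 4.76 to 7.02 CPM in Control.

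**Figure D5:**
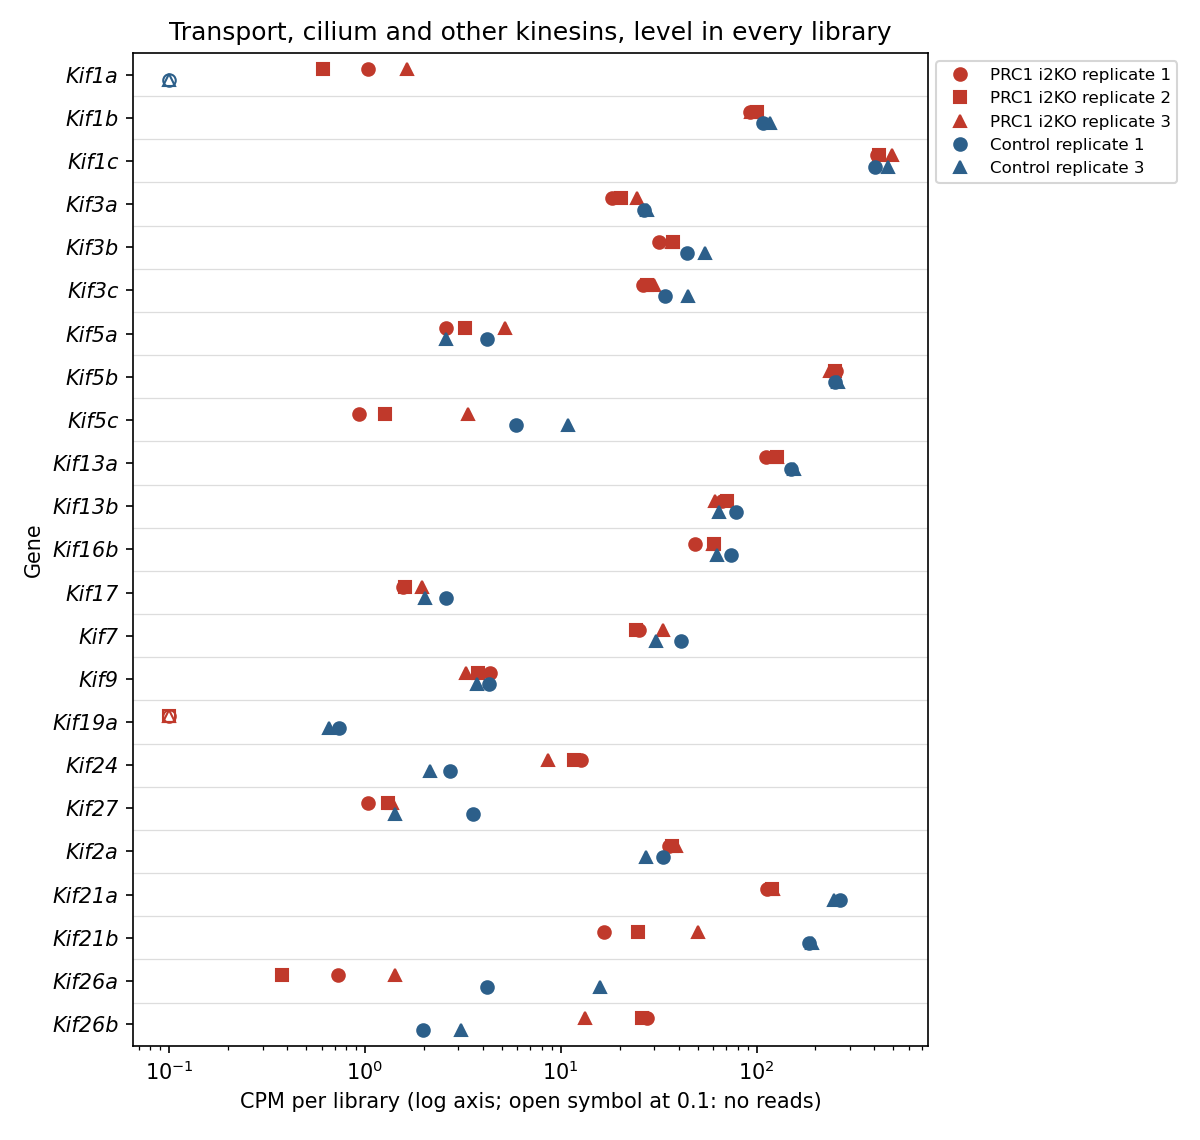
CPM of the tested transport, cilium and centriole, and other kinesins in each library (log axis; an open symbol at 0.1 marks no reads), with PRC1 i2KO in red and Control in blue, symbols marking the replicate number. Most transport kinesins lie close in both groups. For 8 of the 13, every PRC1 i2KO library lies below both controls, as for 29.4% of all genes tested. Kif24 and Kif26b lie further right in PRC1 i2KO, and Kif5c, Kif21a, Kif21b and Kif26a further left.

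Of 7 kinesins of the cilium and the centriole, 5 were tested, of which 1 rose and 1 fell. These shares, 20% and 20%, are near the 18.8% and 15.1% of all genes tested that rose and fell. Kif24, a centriole motor that restrains cilium formation in human cells, rose 4.62-fold, with 12.7, 11.7 and 8.63 CPM in PRC1 i2KO, against 2.71 and 2.15 CPM in Control (log2 fold change 2.21, SE 0.33, edgeR adjusted p = 7.21e-04). Kif19a, which limits the length of motile cilia, had 0 reads in all PRC1 i2KO libraries and 27 over the controls, at 0.738 and 0.653 CPM. That is at least 11.2-fold lower against a floor of 3 reads summed over PRC1 i2KO (edgeR adjusted p = 0.0270). The call of Kif19a held without PRC1 i2KO replicate 1 (edgeR adjusted p = 0.0377) and was lost without Control replicate 1. With any other library left out, Kif19a had too few reads to test. Kif7, which regulates Hedgehog signalling at the cilium tip, stood at 25.0, 24.2 and 33.2 CPM in PRC1 i2KO, against 41.1 and 30.8 CPM in Control. It was not called (log2 fold change -0.38, edgeR adjusted p = 0.160) unless PRC1 i2KO replicate 3 was left out (0.0316). Kif9 and Kif27, both known from motile cilia, were not called either. Kif9 stood at 4.35, 3.76 and 3.26 CPM in PRC1 i2KO, against 4.31 and 3.73 CPM in Control (log2 fold change -0.08), and Kif27 at 1.04, 1.32 and 1.37 CPM in PRC1 i2KO, against 3.57 and 1.43 CPM in Control (-0.95). Control replicate 1 was the highest Kif27 library by far. Kif6 was not tested. It stood at 0.415, 1.22 and 0.369 CPM in PRC1 i2KO, against 0.246 and 0 CPM in Control, with 37 reads over PRC1 i2KO, 26 of them in replicate 2, and 2 over Control, a depth-scaled ratio of 14.9 (exact 95% interval 3.85 to 128). Kif19b had 10 reads, all in PRC1 i2KO replicate 2, and was not tested. Of 5 ciliated cell markers, Tekt1 and Dnah5 had 0 reads, only 2 had enough reads to test, and neither of these rose or fell. The summed level of the 5 was 0.684 to 2.82 CPM in PRC1 i2KO and 1.80 to 5.66 CPM in Control.

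Of the 7 other kinesins, 5 were tested, of which 1 rose and 3 fell, beside 18.8% and 15.1% of all genes tested. Kif21b and Kif21a, related motors that restrain microtubule growth, both fell. Kif21b stood at 16.6, 24.9 and 50.0 CPM in PRC1 i2KO, against 186 and 192 CPM in Control, with all PRC1 i2KO libraries far below both controls and replicate 3 the nearest to them. Its 6.11-fold fall (log2 fold change -2.61, SE 0.50, edgeR adjusted p = 0.0226) was lost without Control replicate 1 (adjusted p = 0.116) or Control replicate 3 (0.107), and also with no filter on low counts (0.0748). Kif21a stood at 114, 119.8 and 121 CPM in PRC1 i2KO, against 267 and 249 CPM in Control, a 2.18-fold fall (log2 fold change -1.13, SE 0.10, edgeR adjusted p = 2.41e-05). The call of Kif21a held with any 1 library left out, at log2 fold changes from -1.17 to -1.08. Together with Kif5c, Kif19a and Kif26a, both were among the 5 of 50 tested members that fell at least 2-fold, beside 6.49% of all genes tested.

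Kif26a and Kif26b, kinesins that act in signalling, moved in opposite directions. Kif26a stood at 0.725, 0.376 and 1.42 CPM in PRC1 i2KO, against 4.18 and 16.0 CPM in Control, so that the controls themselves lay apart. It fell 12.1-fold (log2 fold change -3.60, SE 0.70, edgeR adjusted p = 0.00648), with a log2 fold change of -4.23 without Control replicate 1, -4.34 without PRC1 i2KO replicate 3 and -2.30 without Control replicate 3, where the call was lost (adjusted p = 0.0968). It did not pass on the deposited TPM either (limma adjusted p = 0.0771). Kif26b stood at 27.7, 26.0 and 13.3 CPM in PRC1 i2KO, against 1.97 and 3.11 CPM in Control , and it rose 8.28-fold (log2 fold change 3.05, SE 0.39, edgeR adjusted p = 4.56e-04). Kif2a, a depolymerase used both in neurons and at spindle poles, stood at 35.8, 37.0 and 38.8 CPM in PRC1 i2KO, against 33.5 and 27.1 CPM in Control and was not called (log2 fold change 0.31, edgeR adjusted p = 0.136), with every PRC1 i2KO library above both controls, as for 30% of all genes tested. By TPM every PRC1 i2KO library lay below both controls, at 20.9, 22.2 and 20.3 TPM in PRC1 i2KO, against 48.9 and 27.5 TPM in Control. Kif12 had 2 reads and Kif28 had 5 reads, each in a single PRC1 i2KO library, and neither was tested.

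Set side by side, the mitotic and transport kinesins differed in how far they moved. The 13 mitotic kinesins summed to 149.7, 141 and 102 TPM in PRC1 i2KO and to 31.5 and 19.2 TPM in Control. The 13 transport kinesins summed to 336, 365 and 395 TPM in PRC1 i2KO and 431 and 457 TPM in Control. Mitotic kinesins thus stood at 44.5, 38.7 and 25.8% of the transport sum in PRC1 i2KO, against 7.30 and 4.19% in Control, and every PRC1 i2KO library lay above both controls. Over all 40 kinesins the sum was 566, 594 and 585 TPM in PRC1 i2KO and 679 and 645 TPM in Control, of which mitotic kinesins held 26.4, 23.7 and 17.4% in PRC1 i2KO and 4.63 and 2.97% in Control. The medians of the fitted log2 fold changes differed by 4.41 between mitotic and transport kinesins. On the deposited TPM that difference was 2.77 (log2(TPM + 1)), and it was 3.63 without Control replicate 3. Because the members were chosen with earlier results known, no p-value is given for this difference.

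All 8 cell cycle genes listed for reference rose, with a median log2 fold change of 3.78, beside 18.8% of all genes tested that rose. Mki67, a general marker of cycling cells, stood at 234, 249.9 and 160.1 CPM in PRC1 i2KO and 16.9 and 7.96 CPM in Control (edgeR adjusted p = 0.00194), and Top2a and Ccnb1 rose 18.8-fold and 17.0-fold. Per CPM of Mki67, the summed mitotic kinesins had 1.01, 0.872 and 0.958 CPM in PRC1 i2KO and 1.48 and 2.37 CPM in Control. Without Kif18a these values were 0.966, 0.848 and 0.913 in PRC1 i2KO and 1.12 and 1.45 in Control. Kif18a was picked by its result, so the smaller gap is not a separate result. For the summed spindle assembly genes, Ckap5 among them, the values per CPM of Mki67 lay further apart. They were 2.01, 1.90 and 2.13 CPM in PRC1 i2KO and 7.20 and 14.3 CPM in Control. All 4 genes of the chromosomal passenger complex, the Aurora B kinase complex that Kif20a carries, rose, with a median log2 fold change of 3.51, among them Aurkb (9.77-fold) and Cdca8 (13.3-fold). Of 18 augmin and gamma-tubulin ring genes, which nucleate microtubules in all cells, 2 rose and 16 did not pass, with a median of 0.08. Those that rose were Tubg1 (1.92-fold) and Haus4 (1.94-fold). The 11.1% of this list that rose and the 0% that fell lie under the 18.8% and 15.1% of all genes tested.

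Partners of the transport kinesins gave calls in both directions at shares to be read beside the 18.8% of all genes that rose and the 15.1% that fell. Of 14 tested kinesin light chains and cargo adaptors, 4 rose, 2 fell and 8 did not pass (median log2 fold change -0.11). Trak1, which links kinesin to mitochondria, rose 1.42-fold (edgeR adjusted p = 0.00255), while Spag9, a scaffold for kinesin and dynein, fell 1.61-fold (0.00208) and Fez2 fell 2.18-fold (0.00144). Of 18 tested genes of cytoplasmic dynein and dynactin, the motor that walks the other way, 1 rose, 3 fell and 14 did not pass (median -0.12). Pafah1b1, the dynein regulator Lis1, fell 1.43-fold, and the dynein chains Dynlt3 and Dync1li2 fell 1.44-fold and 1.44-fold. Of 11 tested tubulin genes, 4 rose and 2 fell (median 0.31). Tubb5, the main beta-tubulin of dividing cells, rose 2.09-fold, with 443 ± 17.7 CPM in PRC1 i2KO (SD, n = 3) and 213 ± 5.66 CPM in Control (SD, n = 2) (edgeR adjusted p = 4.75e-05), and Tubb6 rose 4.38-fold.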

How the data were processed

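RNA of 5 libraries was analysed. The authors deposited 2 kinds of value per gene and library, per the file headers: expected counts of reads, of which 9.06% of genes hold a fractional one, and TPM. The deposited TPM corrects for length and has lost the depth. Per the submitters' processing notes, the tools were STAR (2.7.9a), RSEM (1.3.3) and DESeq2 (1.38.2), and the build mm39. Annotation and strandedness: not given in the sources used here, so values of overlapping genes and close paralogs are uncertain. Promoter windows are those of RefSeq on GRCm38.p6.

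The counts were rounded and tested by edgeR 4.0.16 (R 4.3.3) with filterByExpr, TMM and a robust quasi-likelihood F test, with genotype as the only term. Benjamini-Hochberg adjustment covered 15665 genes. The SE is the log2 fold change divided by the square root of F. Intervals and floors cover counting error only. Alternatives used limma 3.58.1 and DESeq2 1.42.0, and the fits were tested on simulated data. Libraries of a group differed by more than sampling noise (lowest chi-square over its degrees of freedom 10.1). Replicate numbers are those of the titles, where the second control is 3 though its description says 2. The members and lists were chosen with earlier results of these data known. Values are given for every member called or with a mean of at least 1 TPM; of other lists, at most the 3 called genes with the smallest adjusted p are named, with Mki67, Top2a and Ccnb1 whatever their result. The 300-base promoter window and the window of 50 bases on either side of the start site were added after seeing the data.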

Additional observations from a re-analysis of the deposited data

How the results depend on the processing

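With any 1 library left out, between 3322 and 5856 genes were called in all, 11 mitotic kinesins rose each time, 13 or 14 spindle assembly genes rose, 0 to 5 transport kinesins fell and 0 or 1 rose, and the median difference between mitotic and transport kinesins lay between 3.63 and 4.74. In fits with 1 control, that control is assumed to vary like the PRC1 i2KO libraries. On the deposited TPM, 9 mitotic kinesins and 12 spindle assembly genes rose under all 3 settings. With log2(TPM + 1), log2(TPM + 0.1) and no filter on TPM, 1, 1 and 0 transport kinesins fell, 0 rose, and the median difference was 2.77, 3.68 and 2.75; 2991 genes were called in all on TPM without the filter, and 3822 with it at log2(TPM + 1). With limma on log2(TPM + 1), over 14438 genes, the median of all genes stood -0.14 from that of edgeR on the log2 scale, and 45.0% of called genes rose, against 55.3% with edgeR on counts. DESeq2, its size factors in edgeR, library totals and both other filters kept 11 mitotic kinesins, 14 spindle assembly genes and 3 or 4 falls of transport kinesins. Over the 50 tested members and all settings, 619 values kept their direction and side of the threshold, 17 changed sign without a call in either fit (of Kif1c, Kif2a, Kif5a, Kif9, Kif13b, Kif18a and Ckap5), 51 lost the call, 2 gained it and none with a call turned its sign; the causes were not tested. The numbers 1 and 3 occur in both groups, but nothing ties same-numbered libraries to 1 animal or day, and their deviations correlated at 0.0737 and 0.115. With the replicate block, 4421 genes were called, 11 mitotic kinesins and 14 spindle assembly genes rose, 3 transport kinesins fell, 1 rose, and the median difference was 4.37; the calls of Kif3c, Kif19a and Kif21b were lost (adjusted p = 0.0613, 0.151 and 0.0686). Depth limits Kif2b, Kif6, Kif12, Kif19b and Kif28, which had too few reads to test.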

Other observations

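Kif15, Ect2, Kif20b and Bora rose by counts but under no setting on TPM, and for the first 3 the quantity that separates both scales stood over 2-fold apart between the groups. Kif1a, with a mean under 1 TPM, was tested on TPM only without the filter and did not pass (limma adjusted p = 0.319). Kif26b passed on TPM with the filter but not without it (limma adjusted p = 0.0521). CPM divided by TPM grows with the effective length that the authors' quantification gave a gene in a library, which depends on the transcript variants to which reads were assigned. Relative to the median gene of each library, this ratio was 0.959, 0.926 and 0.978 for Kif15 in PRC1 i2KO and 0.229 and 0.248 in Control, 4.01-fold apart. For Ect2 it was 1.54, 1.31 and 1.67 in PRC1 i2KO and 0.543 and 0.580 in Control, and for Kif20b 1.65, 1.23 and 1.18 in PRC1 i2KO and 0.409 and 0.929 in Control. Of 12346 genes with at least 10 reads in every library, 35 (0.283%) had group means of this ratio over 2-fold apart, and these 3 members were among them. Kif15 had 22 and 64 reads in Control replicates 1 and 3. The comparison was made after seeing the data, and which transcript variants the reads came from was not tested.

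Kif26b and Kif24 rose with the mitotic kinesins and hold a cell cycle homology region within 50 bases of the start site. That window was chosen after seeing the data. Both genes had PRC1 i2KO replicate 3 as the lowest library of that group, as 56.4% of all genes that rose did. Kif1a, the transport kinesin that rose, also holds the region there, and PRC1 i2KO replicate 3 was its highest library, at 1.63 CPM. It had only 10, 13 and 31 reads in PRC1 i2KO replicates 1, 2 and 3. Whether the rise of any of these genes is tied to the region was not tested.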
